A study of Mus musculus with 6 samples.

Results

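Expression of 10 genes used to mark the lineages and stem-like states of the mammary epithelium was read in the mouse mammary carcinoma line 4T1. The genes, taken as listed by name, were the surface protein genes Cd44, Cd24a, Prom1, Epcam and Ly6a and the transcription factor genes Elf5, Gata3, Foxa1, Sox9 and Trp63. All 10 had a row among the 28418 genes of each table. The 6 libraries of poly(A) RNA came from epithelial cells kept for 35 passages either at 0 nM PFOS (3 libraries) or at 100 nM PFOS (3 libraries). PFOS, perfluorooctane sulfonate, is a persistent fluorinated surfactant. Both groups are the same established tumour line, so none of the libraries stands for normal mammary epithelium, and nothing in the labels says whether the libraries of a group were separate cultures. The p-values therefore measure only the spread between these libraries, which may be technical. The comparison addresses which transcripts differ in this triple-negative breast cancer model once it has been cultured with PFOS for many passages. In bulk RNA, fewer cells carrying a marker and less RNA per cell cannot be told apart.

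The mammary gland holds an inner luminal layer, which includes hormone-sensing and milk-producing cells, and an outer basal or myoepithelial layer. Gata3 and Foxa1 act in the luminal lineage, with Foxa1 opening chromatin for the estrogen receptor, while Elf5 drives the alveolar, milk-producing branch and Trp63 maintains basal cells. Cell sorting of mouse mammary epithelium and of breast tumours rests on surface proteins such as CD24, CD44, EpCAM, Sca-1 (the product of Ly6a) and prominin-1, and a CD44-high, CD24-low surface profile is a widely used description of stem-like breast cancer cells.

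Levels are given as FPKM, a fragment count divided by the length of the transcript and by the library's mapped fragments, and so can be set side by side between genes. Library sums lay between 306716 and 309381 FPKM. Replicate 3 at 100 nM stood apart from the other 5 libraries, with a score of 19.4 on the first principal component against -9.57 to 0.06. On the second component, with 24.1% of the variance, replicate 3 at 0 nM stood apart (14.9 against -5.97 to 5.15). Replicate 3 at 100 nM was the highest library for 21 of 23 T cell and leukocyte markers, whose summed level was 113 FPKM there and 33.3 to 55.5 FPKM elsewhere, and for 24 of 24 interferon response genes (377 FPKM against 196 to 218 FPKM). Of the T cell genes, Cd3e, Cd3g, Cd8b1, Gzma and Nkg7 were listed at 0 in the other 5 libraries. The most abundant of these lists, Cd68 and Tyrobp (15.52 to 31.13 and 6.42 to 17.19 FPKM), Ifitm3 and Bst2 (90.87 to 119 and 40.40 to 67.93 FPKM) and the fibroblast gene Pdgfra (3.15 to 3.81 FPKM), did not pass the test between doses (limma adjusted p 0.383 to 0.671), although Tyrobp did, at a log2 difference of 0.94, without replicate 1 at 100 nM (limma adjusted p = 0.0393). The part of these transcripts in the values of the markers was not tested, so each tested marker is also given without that library. The epithelial label fitted the keratin genes Krt8 (289 to 310 FPKM) and Krt18 (276 to 308 FPKM), while the fibroblast gene Dcn was at most 0.05 FPKM outside replicate 3 at 100 nM, where it was 2.26 FPKM. Other markers did not follow the label. Vim, an intermediate filament gene also of mesenchymal cells, was higher than both keratins, at 512.5 to 565.3 FPKM. Pdgfra, given above, was present in every library.

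The 10 genes ranged from listed at 0 in every library to a mean of 73.2 FPKM. Cd24a had the highest mean over the 6 libraries (73.2 FPKM; lowest and highest library 66.7 and 75.8 FPKM), followed by Cd44 (50.2; 47.7 to 52.5 FPKM), Epcam (28.6; 25.1 to 35.1 FPKM), Gata3 (9.83; 9.25 to 10.2 FPKM), Sox9 (7.50; 6.92 to 8.45 FPKM), Ly6a (5.10; 4.25 to 6.73 FPKM) and Foxa1 (1.19; 0.81 to 1.51 FPKM). Neighbours in this order did not overlap in any library, although the lowest Foxa1 value lay only just above the highest value of Prom1, which had a mean of 0.533 FPKM (0 to 0.80 FPKM). Trp63 was at 0 or 0.01 FPKM and Elf5 was listed at 0 in all 6 libraries, so these 2 could not be ordered, and neither could Prom1 in the library where it was at 0. Cells of this line thus carried transcripts of the luminal factors Gata3 and Foxa1 but almost none of the basal factor Trp63 and none listed for the alveolar factor Elf5. Genes averaging at least 1 FPKM over the 6 libraries were tested, which kept 7 of the 10. Foxa1 lay just inside that limit and Prom1 just outside it.

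**Figure D1:**
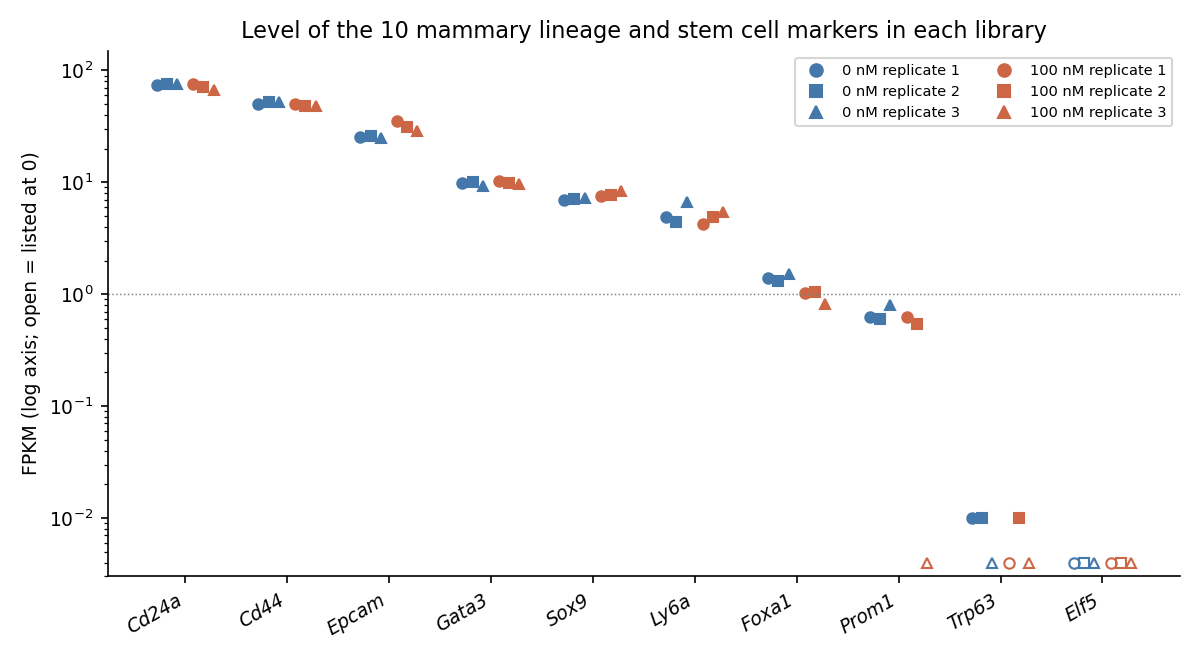
FPKM of the 10 genes (log axis) in each of the 6 libraries, ordered by mean level, with 0 nM libraries in blue and 100 nM libraries in orange; open symbols at the bottom are values listed at 0 and the dotted line is 1 FPKM. Cd24a, Cd44 and Epcam sit above 25 FPKM in every library, Prom1 is at 0 only in replicate 3 at 100 nM, and Elf5 is at 0 throughout.

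None of the 7 tested genes changed between 0 nM and 100 nM PFOS (limma, Benjamini-Hochberg adjusted p under 0.05 over 11741 genes), where 4.15% of all genes tested did (1.69% higher and 2.46% lower). At an unadjusted p under 0.05 there were 4 of 7, namely Epcam, Foxa1, Cd44 and Sox9, against 20.7% of all genes. The same 4 were the ones whose groups did not overlap, 2 higher and 2 lower at 100 nM, where 26.9% of all genes tested had groups that did not overlap. The median difference of the 7, 100 nM minus 0 nM on the log2(FPKM + 1) scale, was -0.07, beside 0.005 for all genes tested. That scale understates the change of low genes such as Foxa1.

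Of the surface proteins, Epcam, an epithelial cell adhesion molecule of the basolateral membrane, came nearest to the threshold. It was at 25.58, 26.04 and 25.10 FPKM in the 0 nM libraries and at 35.09, 30.95 and 29.00 FPKM in the 100 nM libraries. Every 100 nM library was above every 0 nM library, and the 100 nM libraries differed from each other more than the 0 nM libraries did. The means were 25.6 ± 0.470 and 31.7 ± 3.11 FPKM (SD, n = 3 each), a ratio of 1.24, and the log2 difference was 0.29 ± 0.07 (SE; 95% interval 0.14 to 0.45), with a limma adjusted p of 0.0606. The call depended on which genes and libraries were used. Without replicate 3 at 100 nM the difference was 0.35 and passed (limma adjusted p = 0.0395). It also passed when only genes averaging at least 5 FPKM (limma adjusted p = 0.0422) or only protein-coding genes (adjusted p = 0.0417) were tested, and in 13 of 16 alternatives it did not. Epcam lies on chromosome 17, 87635979 to 87651106 (GRCm38, plus strand).

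Cd44, the hyaluronan receptor, was at 50.44, 52.53 and 52.50 FPKM at 0 nM and at 49.72, 48.41 and 47.68 FPKM at 100 nM. All 100 nM values were below all 0 nM values, by a narrow margin. The log2 difference of Cd44 was -0.09 ± 0.03 (SE; 95% interval -0.16 to -0.03), a ratio of means of 0.938, with a limma adjusted p of 0.122, and -0.08 without replicate 3 at 100 nM. Cd24a, a small heavily glycosylated surface protein anchored by a lipid, was at 73.92, 75.68 and 75.40 FPKM at 0 nM and at 75.82, 71.39 and 66.68 FPKM at 100 nM. Its groups overlapped, since the highest of the 6 values was replicate 1 at 100 nM and the lowest was replicate 3 at 100 nM. The log2 difference of Cd24a was -0.07 ± 0.05 (SE; 95% interval -0.18 to 0.03; limma adjusted p = 0.416), and it was -0.03 without replicate 3 and -0.12 without replicate 1 at 100 nM (limma adjusted p = 0.693 and 0.165).

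The ratio of Cd44 to Cd24a transcript, the RNA counterpart of the surface profile named above, was 0.682, 0.694 and 0.696 at 0 nM and 0.656, 0.678 and 0.715 at 100 nM. The 100 nM libraries lay on both sides of the 0 nM libraries, with means of 0.691 ± 0.007 and 0.683 ± 0.030 (SD, n = 3 each). The difference of the means, -0.008, turned to 0.006 when replicate 1 at 100 nM was left out and was -0.024 when replicate 3 of that group was. Cd24a transcript thus exceeded Cd44 transcript in all 6 libraries. The gene-level values do not show the splice forms of Cd44, and RNA does not measure the proteins at the surface. The epithelial splicing regulators Esrp1 and Esrp2, which act on Cd44 transcripts, were at 2.12 and 8.997 FPKM at 0 nM and at 2.48 and 9.84 FPKM at 100 nM, and neither passed (limma adjusted p = 0.176 and 0.267).

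Ly6a encodes Sca-1, an interferon-responsive surface protein found on hematopoietic stem cells and on a subset of luminal mammary cells. Its values were 4.85, 4.39 and 6.73 FPKM at 0 nM and 4.25, 4.92 and 5.47 FPKM at 100 nM. Replicate 3 was the highest library within each group, and the groups overlapped. The log2 difference of Ly6a was -0.09 ± 0.14 (SE; 95% interval -0.44 to 0.25; limma adjusted p = 0.769), and it turned to 0.06 when replicate 3 at 0 nM was left out and was -0.16 without replicate 3 at 100 nM. Its relative Ly6e was likewise highest in replicate 3 of each group, at 5.48, 6.40 and 10.76 FPKM at 0 nM and 6.69, 8.16 and 11.69 FPKM at 100 nM. Of the 24 interferon response genes, 18 were highest within the 0 nM group in replicate 3, and all 24 were highest within the 100 nM group in replicate 3. Ly6e was set beside Ly6a after its values were seen, and the part of an interferon signal in Ly6a was not tested. Ly6a is also the least certain of the 10 by sequence: 31.9% of its 31-base words occur in transcripts of other genes, and 68.7% of those words occur in Ly6c1.

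Prom1, which encodes the membrane protrusion protein prominin-1 (CD133), was at 0.63, 0.60 and 0.80 FPKM at 0 nM and at 0.63, 0.54 and 0 FPKM at 100 nM. Replicates 1 and 2 at 100 nM lay within or just below the 0 nM range, and replicate 3 alone was at 0. Tested without the filter on low values, its log2 difference was -0.30 ± 0.19 (SE; limma adjusted p = 0.667). Genes lost from a single library were then counted, with limits chosen after the values were seen. Of 13198 genes at 0.3 FPKM or more in the other 5 libraries, 68 were below 25% of the lowest other value in replicate 3 at 100 nM and 29 were at 0. The same counts for each of the other 5 libraries were 6 to 11 and 2 to 6. Replicate 3 at 100 nM also had 169 genes at 0.3 FPKM or more and above 4 times the highest other value, against 14 to 26 in each other library. How many of the mammary genes listed here reached 0.3 FPKM was not counted. Their share is therefore not given beside the 68 of 13198 genes, and their count is a description only. Of these mammary genes, 5 were among the 68, and none were lost in this way in any other library. They were Prom1, the P-cadherin gene Cdh3 (0.48 to 0.81 FPKM in the other libraries and 0 in replicate 3), the tetraspanin gene Tspan8 (0.67 to 1.36 and 0 FPKM), the tight junction gene Cldn1 (1.03 to 1.19 and 0.04 FPKM) and the smooth muscle gene Tagln (0.90 to 1.62 and 0.08 FPKM).

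**Figure D2:**
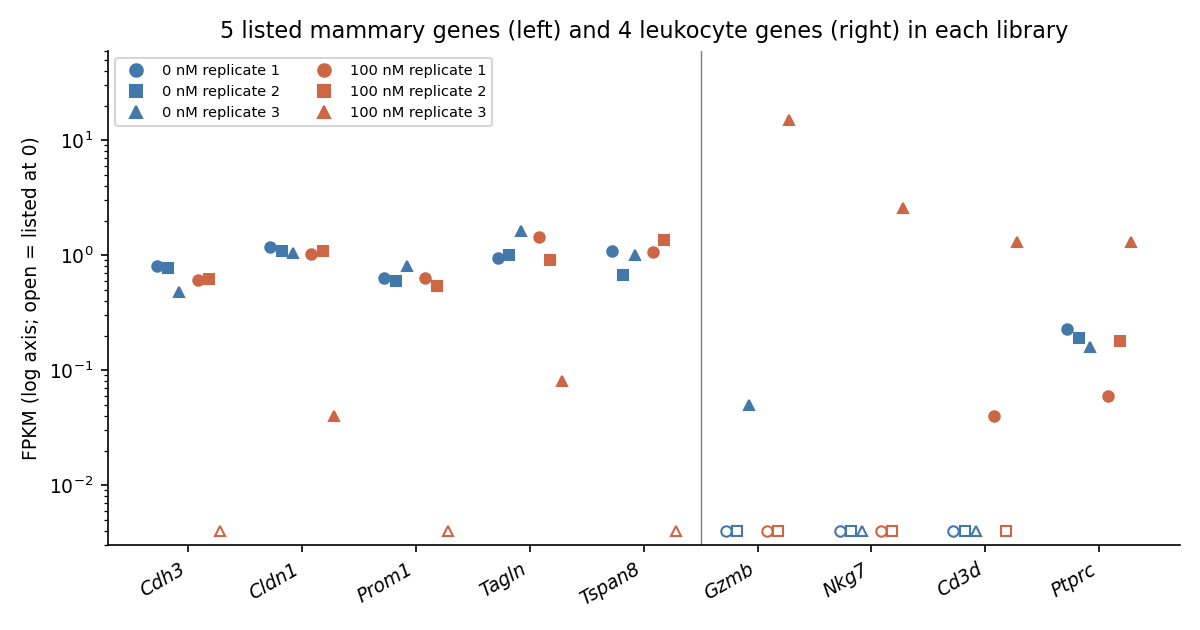
FPKM (log axis) of the 5 listed mammary genes that were below 25% of their lowest other value in replicate 3 at 100 nM, and of the leukocyte genes Gzmb, Nkg7, Cd3d and Ptprc, chosen after their values were seen; open symbols are values listed at 0. The orange triangle, replicate 3 at 100 nM, is lowest for each gene on the left and highest for each gene on the right (Gzmb at 14.94 FPKM against at most 0.05 FPKM).

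The DNA just before the start sites is shown for Epcam, Cd44 and Prom1, the members with a window free of annotated exons. Each window holds 250 bases before the RefSeq start on GRCm38.p6, 5′ to 3′ on the gene's strand, with CpG dinucleotides, the sites of DNA methylation, in capitals. Windows that overlap an annotated exon are not printed, so the Prom1 window is the one before its inner start.
Epcam (chr17:87635729-87635978, plus strand): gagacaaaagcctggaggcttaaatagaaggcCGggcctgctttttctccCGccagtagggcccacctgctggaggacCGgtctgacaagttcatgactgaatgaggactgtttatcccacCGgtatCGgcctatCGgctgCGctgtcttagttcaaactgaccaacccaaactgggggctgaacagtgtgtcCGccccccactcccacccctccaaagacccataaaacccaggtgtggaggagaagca
Cd44 (chr2:102901666-102901915, minus strand): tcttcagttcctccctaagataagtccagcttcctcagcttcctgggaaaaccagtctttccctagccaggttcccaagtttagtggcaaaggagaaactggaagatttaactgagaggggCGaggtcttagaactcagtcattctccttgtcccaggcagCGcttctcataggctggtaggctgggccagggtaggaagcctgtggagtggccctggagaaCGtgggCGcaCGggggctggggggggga
Prom1 (chr5:44094769-44095018, minus strand): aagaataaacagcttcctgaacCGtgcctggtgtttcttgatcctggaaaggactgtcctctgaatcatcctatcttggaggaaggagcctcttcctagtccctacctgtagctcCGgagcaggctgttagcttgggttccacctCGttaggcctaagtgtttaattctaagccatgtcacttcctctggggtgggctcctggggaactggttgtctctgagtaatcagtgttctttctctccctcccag
These windows held 8, 5 and 3 CpGs, where the median of 32851 windows of that length was 6. The E-box letters CACCTG, bound by repressors of epithelial genes such as the Snail and Zeb factors, were searched on both strands. They occurred at 2 places in the Epcam window and at 0 in those of Cd44 and Prom1 printed here, and 17.2% of all windows held them at least once. RefSeq windows were matched for 6 of the 10 genes. Of the unprinted windows, the outer one of Elf5 held them at 3 places, the outer one of Prom1 and that of Foxa1 at 1 each, and those of Gata3 and the inner start of Elf5 at 0. The unprinted windows ranged from 2 CpGs at the outer start of Elf5 to 19 for Gata3 and 21 for Foxa1. These counts describe letters only and carry no measure of binding or methylation.

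Of the transcription factors, Foxa1 had the lowest difference. It was at 1.41, 1.32 and 1.51 FPKM at 0 nM and at 1.03, 1.04 and 0.81 FPKM at 100 nM. The groups did not overlap, with replicate 3 at 100 nM the lowest. The means of Foxa1 were 1.41 ± 0.0950 and 0.960 ± 0.130 FPKM (SD, n = 3 each), a ratio of 0.679, and its log2 difference was -0.30 ± 0.08 (SE; 95% interval -0.49 to -0.12), with a limma adjusted p of 0.0873. It did not pass in any of the 15 alternatives in which it was tested (adjusted p 0.0564 to 0.272), and its difference was -0.25 without replicate 3 at 100 nM. At a smaller pseudocount of 0.1 the difference was -0.52, since the level lies near the pseudocount of 1.

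Gata3, a zinc finger factor needed for luminal differentiation, was at 9.84, 10.15 and 9.25 FPKM at 0 nM and at 10.22, 9.79 and 9.70 FPKM at 100 nM. The groups overlapped over most of their range. Its log2 difference was 0.02 ± 0.04 (SE; 95% interval -0.08 to 0.12; limma adjusted p = 0.814), and it took the other sign, -0.01, when replicate 3 at 0 nM was left out and was 0.04 without replicate 3 at 100 nM. Exons of Gata3 overlap the gene 9230102O04Rik on the same strand and Gm13256 on the other. Sox9, an HMG-box factor of luminal progenitors and of many stem cell compartments, was at 6.92, 7.14 and 7.28 FPKM at 0 nM and at 7.49, 7.71 and 8.45 FPKM at 100 nM. Every 100 nM library was above every 0 nM library, with replicate 3 at 100 nM the highest. The log2 difference of Sox9 was 0.13 ± 0.05 (SE; 95% interval 0.02 to 0.24), a ratio of means of 1.11, with a limma adjusted p of 0.192. Without that library the difference was 0.08.

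Elf5, an Ets factor, was listed at 0 in every library. Cd44, 510.0 kb away on chromosome 2, was among the higher genes of the genome (96.6% of genes above 0 had a lower mean). Ehf, a relative of Elf5 that lies between Cd44 and Elf5, was at 0.35 to 0.73 FPKM. Trp63, the p53 relative of basal cells, was at 0.01, 0.01 and 0 FPKM at 0 nM and at 0, 0.01 and 0 FPKM at 100 nM, the last digit the tables carry. No fold can be read from Elf5 or Trp63. As the tables hold no depth, the level that a listed 0 allows is not known.

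**Figure D3:**
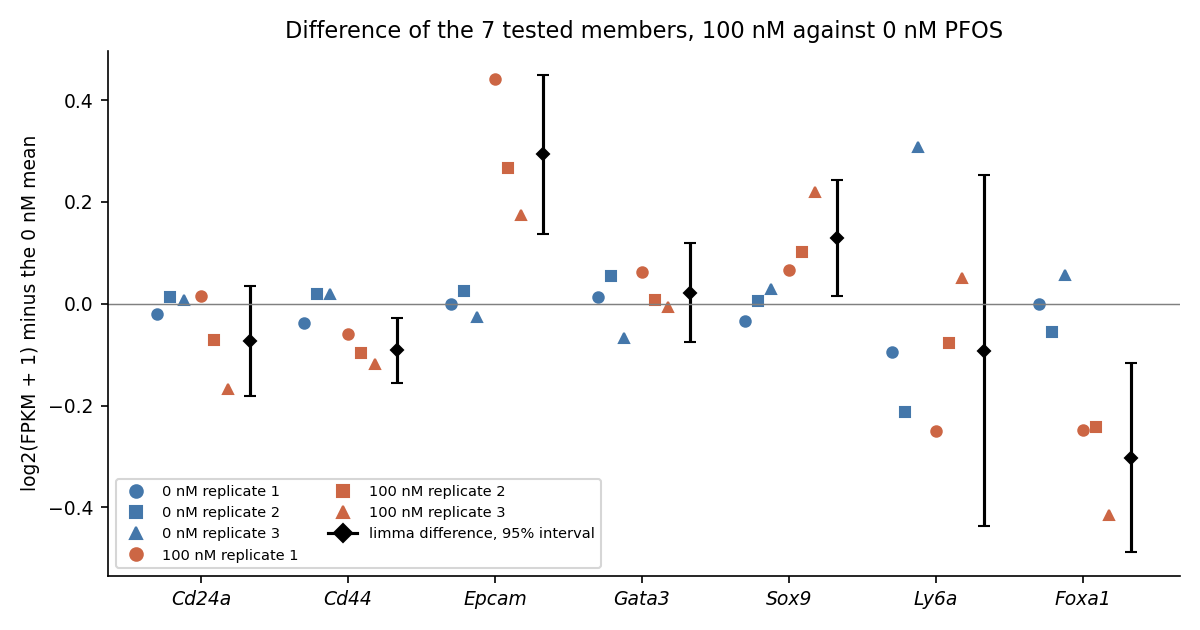
log2(FPKM + 1) of each library minus the mean of the 0 nM libraries for the 7 tested genes, with the limma difference (diamond) and its 95% interval. Epcam and Sox9 have all 100 nM libraries above the 0 nM libraries, Cd44 and Foxa1 all below, and the intervals of Cd24a, Gata3 and Ly6a cross 0.

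Other markers of the same lineages were read from lists chosen by role, with earlier results of these data known. Beside each count of called genes below, 1.69% of all genes tested were higher and 2.46% lower. Of 18 basal and myoepithelial markers, 6 were tested, of which 1 rose and 2 fell (median difference -0.03). The hemidesmosome integrin gene Itgb4 rose from a mean of 7.58 FPKM (SD 0.274) to 9.70 FPKM (SD 0.441), with a limma adjusted p of 0.0150. Its partner Itga6, a marker in mammary stem cell sorting, fell from 22.7 FPKM (SD 0.242) to 19.9 FPKM (SD 0.855), with a limma adjusted p of 0.0400, and the intermediate filament gene Vim fell from 563 to 516 FPKM (limma adjusted p = 0.0121). The calls of Itga6 and Vim were lost in 9 and 8 of 16 alternatives, that of Itgb4 in 5. Itgb1, the other integrin of basal sorting, was at 256 FPKM in both groups (limma adjusted p = 0.996). The basal keratin Krt5 was at most 0.03 FPKM and Krt14 was at 0.767 and 1.33 FPKM (limma adjusted p = 0.0802). The basal markers that were abundant here, Vim, Itgb1, Procr and Itga6, are not restricted to basal cells.

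Of 12 hormone-sensing luminal markers 3 were tested, with 1 lower and a median difference of 0.10. The epidermal growth factor receptor ligand gene Areg, known as a target of the estrogen receptor in the mammary gland, was at 16.61, 17.43 and 17.55 FPKM at 0 nM and at 12.72, 11.73 and 12.10 FPKM at 100 nM. The groups were well separated and Areg fell by 0.47 ± 0.04 (SE) on the log2 scale (limma adjusted p = 0.00323). The gene passed in 14 of 16 alternatives and missed the threshold narrowly in the others (limma adjusted p = 0.0506 with the replicate number as a block and 0.0510 with replicates 3 of both groups left out). The estrogen receptor gene Esr1 itself was at 0.26 to 0.45 FPKM, below the filter. Xbp1 (24.3 and 26.02 FPKM) and Cited1 (0.953 and 1.57 FPKM) did not pass (limma adjusted p = 0.135 and 0.174), though neither had overlapping groups.

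Of 15 luminal progenitor and milk genes 5 were tested and 0 passed (limma; 0 at an unadjusted p under 0.05; median difference 0.06), with the milk fat globule gene Mfge8 at 48.7 and 50.6 FPKM. Cd14 was at 8.41 to 24.14 FPKM in 5 libraries and at 65.16 FPKM in replicate 3 at 100 nM. Kit and Aldh1a3, which mark luminal progenitors, were at most 0.08 and 0.03 FPKM. Other genes of this list were present in every library, namely Itga2 (13.67 to 15.07 FPKM), Lcn2 (10.02 to 12.51 FPKM) and Itgb3 (2.49 to 3.33 FPKM). None of them passed (limma adjusted p = 0.643, 0.569 and 0.395). The casein gene Csn3, a milk protein gene, was at 0.57 to 0.64 FPKM at 0 nM and 0.36 to 0.45 FPKM at 100 nM, beside the listed 0 of Elf5. Ltf of the same list was at 0.93 to 1.18 FPKM at 0 nM and 0.44 to 0.82 FPKM at 100 nM. The groups of Csn3 and Ltf did not overlap, as for 26.9% of all genes tested. Both genes lay below the filter and were not tested. Of 18 stem and progenitor markers 8 were tested and 0 passed (limma; 2 at an unadjusted p under 0.05; median difference -0.05). The most abundant were the tetraspanin gene Cd9 (160 and 157 FPKM) and Myc (122 and 123 FPKM). The aldehyde dehydrogenase gene Aldh1a1, used as a stem cell marker through its enzyme activity, was at most 0.06 FPKM.

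Among 38 family members and partners of the 10 genes, 18 were tested and 1 changed, with a median difference of 0.001. Perp, a desmosomal protein gene and a known target of p63, rose from 24.8 FPKM (SD 0.477) to 28.8 FPKM (SD 1.37), with a limma adjusted p of 0.0370. The call of Perp was lost in 9 of 16 alternatives. Trp63 was at 0.01 FPKM or less, and its relative Trp53 was at 14.85 and 13.62 FPKM (limma adjusted p = 0.118). The part of either gene in the rise of Perp was not tested. The GATA cofactor gene Zfpm1 was at 8.67 and 9.31 FPKM (limma adjusted p = 0.169) and the EpCAM partner gene Cldn7 at 1.52 and 1.34 FPKM (limma adjusted p = 0.779). For epithelial identity all 12 genes were tested, 5 rose and 0 fell, where 1.69% of all genes tested rose and 2.46% fell. The median difference was 0.22, beside 0.005 for all genes. This list too was chosen with earlier results of these data known. The 5 were Cdh1, Krt7, Krt19, Jup and Dsp. The calls of Jup, Krt19, Dsp and Krt7 were lost in 9, 7, 5 and 1 of 16 alternatives. The count of 5 became 2 without replicate 1 or 2 of either group, 3 without replicate 3 at 0 nM and 1 with the replicate number as a block. Without replicate 3 at 100 nM the count was again 5, but Krt8 passed in place of Jup. Cdh1, the E-cadherin gene, passed in 16 of 16 alternatives, with ratios of means of 1.22 for Cdh1 and 1.25 for Krt7 beside 1.24 for Epcam. The spread of Epcam over the 100 nM libraries (SD 3.11 FPKM) was wider than that of Cdh1 (SD 1.59 FPKM) at a lower level.

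**Figure D4:**
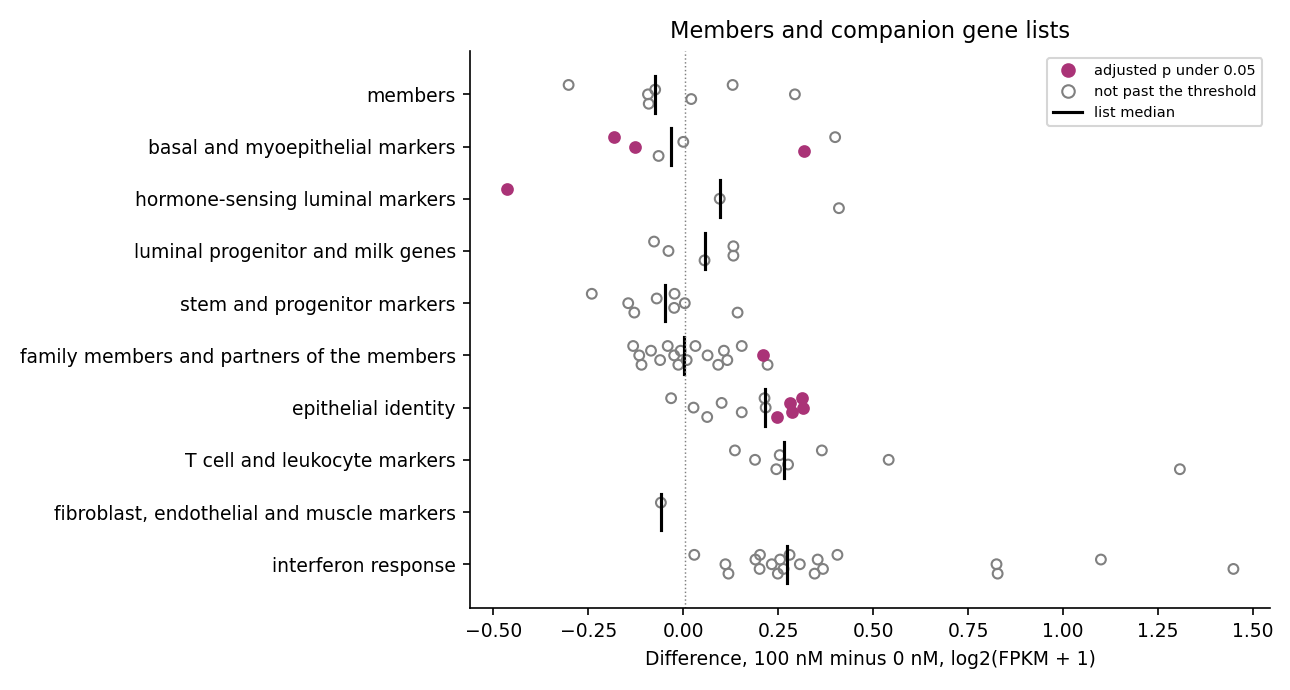
Difference, 100 nM minus 0 nM on the log2(FPKM + 1) scale, of every tested gene in the 10 members and 9 companion lists; filled points passed limma at an adjusted p under 0.05, black bars are list medians and the dotted line is the median of all genes tested. The 7 members lie on both sides of 0 with none filled, and all 5 filled epithelial points lie above 0.

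The surroundings of the members on the genome were described by the tested genes starting within 2.5 Mb. Of all 11741 genes tested, 5566 were lower at 100 nM and 6175 higher. Around Epcam 11 of 16 neighbours were lower at 100 nM, with a median of -0.04, while Epcam itself was higher. Only 1 of these neighbours passed the limma threshold, and that one was higher. Around Foxa1 17 of 26 were higher, with a median of 0.01, while Foxa1 was lower. Around Cd44 the median was 0.02, with 1 neighbour past the threshold, higher, and around Sox9 the median was 0.01. Trp63 lies in a stretch of chromosome 16 where 7 of 9 neighbours were lower (median -0.18), 3 of them past the limma threshold, but its own level was too low to show a difference.

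Foxa1 varied most over the 6 libraries among the tested members, with a ratio of highest to lowest value of 1.86. The 5 protein-coding genes whose log2 values were most like it over the 6 libraries were Tnfaip2, Hacd1, Anln, Ctnna1 and Mtcl1, with Pearson correlations of 0.992 to 0.997. These correlations describe 6 points that share their libraries and were picked as the highest over all genes. Like Foxa1, all 5 had lower values in every 100 nM library, which follows from picking genes by their likeness to Foxa1. The limma p-values below belong to genes picked in this way and are no separate evidence. Hacd1, an enzyme gene of very long chain fatty acid synthesis, fell from 11.57 to 12.39 FPKM at 0 nM to 8.94 to 9.91 FPKM at 100 nM (limma adjusted p = 0.0206). Ctnna1, the alpha-catenin gene of adherens junctions, also fell (limma adjusted p = 0.0414), and the other 3 did not pass. The call of Ctnna1 was lost in 10 of 16 alternatives, among them each of the 6 that left out a single library, and that of Hacd1 in 8.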

How the data were processed

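The authors' deposited values are FPKM per gene, 1 table per library, written to 2 decimals. The tools named per the submitters' processing notes are StringTie, HISAT2 and fastp, with the genome builds mm10 and GRCh38. Their versions, roles and strand settings were not given in the sources used here. Identifiers were matched to GENCODE M21 (28350 of 28418), and the members' coordinates are those of the tables. The tables hold no depth. At the best step, 27.6% to 32.3% of low values lay within 0.1 of a whole multiple of 1 read, where chance gives 20% at a single step, so reads were not recovered.

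Libraries were grouped by the labelled treatment. The main test was limma-trend (limma 3.58.1, R 4.3.3) on log2(FPKM + 1), two-sided, over 11741 genes averaging at least 1 FPKM, called at a Benjamini-Hochberg adjusted p under 0.05. In simulated data for 100 nM against 0 nM with 11741 genes, 66% of 50 genes changed by 1.2-fold, 90% at 1.5-fold and 98% at 2-fold were recovered, with 15 false calls of 191. The changed genes were drawn from those with a mean log2(FPKM + 1) above 2, with the fold set on FPKM + 1 and independent normal noise. These rates therefore do not cover low genes such as Foxa1, nor a library that stands apart. Alternatives covered pseudocounts, filters, scaling, the trend, a replicate block and each library left out in turn, and 2 were added after seeing the data. Members and lists were chosen with earlier results of these data known. Named besides the 10 members are called genes of each list, otherwise its 2 most abundant genes, and the 5 genes most like the most variable tested member, and other genes were chosen after their values were seen. Listed genes without a row, such as Pgr and Csn2, were not analysed here. Python 3.11.15, with pandas 2.3.3, scipy 1.17.1 and matplotlib 3.10.9, served for the other steps.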

Additional observations from a re-analysis of the deposited data

How the results depend on the processing

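Of 7 tested members, 5 kept their direction in all alternatives run. Ly6a turned to 0.061 and Gata3 to -0.012 without replicate 3 at 0 nM. With 1 library left out they ranged from -0.199 to 0.061 and from -0.012 to 0.048. The count of members changed, 0, became 1 (Epcam) with a mean of at least 5 FPKM, 1 with protein-coding genes only, where in both fewer genes were tested, and 0 to 1 when 1 library was left out, the 1 being without replicate 3 at 100 nM. Genes changed, 487, became 204 without the filter, 294 without the trend, 58 with the replicate number as a block, 91 with replicates 3 of both groups left out and 122 to 290 without 1 library. The 10 changed genes of the mammary lists became 5, 8, 1, 5 and 3 to 9 in the same order; the 1 was Cdh1, and the cause was not tested. Same-numbered libraries did not deviate together over all genes (correlations -0.053 to 0.007 over 11741 genes), and not every library correlated best with its own number. Yet 18 of 24 interferon response genes were highest in replicate 3 of both groups. The correlations therefore cannot decide whether the numbers pair the libraries. The numbers were not used as a block elsewhere. Among other named genes, Myc turned from 0.004 to -0.003 with median of ratios scaling and with replicates 3 left out, to -0.012 without replicate 3 at 0 nM and to -0.014 without replicate 2 at 100 nM. Cd14 turned from 0.132 to -0.073 without replicate 1 at 0 nM, to -0.716 without replicate 3 at 100 nM and to -0.728 without both replicates 3. In the last pair of settings Cd68 turned from 0.245 to -0.019 and -0.009. With 1 library left out Cd14 reached 0.691, Myc 0.018 and Cd68 0.461; the group then holds 2 libraries.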
